A study of Homo sapiens with 6 samples.

Results

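RNA polymerase III makes short, untranslated RNAs that a cell uses in large amounts. The 9 genes described here make some of these RNAs, outside the tRNA and 5S rRNA families. They were RN7SK, RN7SL1, RN7SL2, RMRP, RPPH1, RNU6ATAC, VTRNA1-1, VTRNA1-2 and VTRNA1-3, chosen by name out of the 58121 genes that GENCODE 29 annotates on chromosomes 1 to 22 and X of build GRCh38. Their data were the peaks within 500 bp of the gene start in 3 peak lists made by dREG, a classifier that marks active promoters and enhancers from run-on reads on both strands. Over the 3 lists, 37 of 78446 peaks met that rule.

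The samples were 6 libraries of K562, an established human leukaemia line, grown untreated. Precision run-on sequencing (PRO-seq) lets engaged polymerases add a biotin-labelled nucleotide to their nascent RNA, so that the position of each polymerase can be read from the RNA's end. PRO-seq 1M stands for 2 libraries by the published protocol from 1M permeabilized cells each, qPRO-seq 1M for 2 libraries by a faster protocol from the same input, and qPRO-seq 250k for 2 libraries by the faster protocol from 250k cells. The published protocol used 3 affinity purifications and the faster one 1, libraries from 1M cells had 11 PCR cycles and those from 250k cells 14, and all run-ons used 2 biotin-labelled nucleotides. The labels call K562 a lymphoblastoid cell line, and the lists hold no expression values with which to check markers of it. The labels name 1 list for both libraries of a group, so each value below is that of 1 list, has no spread between replicates, and was not tested. The lists held 24707, 38177 and 15562 peaks in that order, and the number of reads behind them is unknown, so a longer list cannot be told apart from deeper sequencing. A peak's score has no unit, and its percentile, the percent of peaks of the same list that scored no higher, was used only to place it within that list.

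As background, all RNA polymerases in a permeabilized cell can carry on in a run-on reaction, and polymerase III is read beside polymerase II. The genes fall into promoter types. RN7SK, RMRP, RPPH1 and RNU6ATAC have promoters that lie wholly upstream of the gene, with an octamer-type distal element, a proximal sequence element bound by the SNAPc complex and a TATA box. The 7SL genes and the vault RNA genes use elements within the transcribed part together with upstream ones. The RNAs have separate jobs. 7SK RNA holds the elongation factor P-TEFb inactive, 7SL RNA is the scaffold of the signal recognition particle, RPPH1 and RMRP are the RNAs of RNase P and RNase MRP, U6atac acts in the minor spliceosome, and vault RNAs belong to the vault particle.

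Sequence is shown first for the genes whose promoter side or body bears on the peaks described below. The RefSeq promoter table (build GRCh38.p14) has no entry for any of the 9 genes, but windows of 300 bases made for 4 neighbouring genes reach the upstream side of a member. Those of PARP2 (chr14:20343385-20343684) and CCDC107 (chr9:35658042-35658341) are printed on the minus strand, in the direction of RPPH1 and RMRP, and that of LOC105378198 (chr5:140711026-140711325) on the plus strand, in the direction of VTRNA1-1. Capitals mark the octamer ATGCAAAT on either strand, the letters TATA when they lie 40 to 15 bases before the gene start, and ACC followed by AAA after 7 to 9 other bases when the pair lies 80 to 40 bases before it.
RPPH1 upstream: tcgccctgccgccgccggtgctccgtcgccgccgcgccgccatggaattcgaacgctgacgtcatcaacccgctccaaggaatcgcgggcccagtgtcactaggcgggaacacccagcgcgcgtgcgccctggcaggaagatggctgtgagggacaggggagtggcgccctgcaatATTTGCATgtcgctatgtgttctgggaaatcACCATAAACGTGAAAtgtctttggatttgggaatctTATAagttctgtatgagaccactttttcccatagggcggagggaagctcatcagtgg
RMRP upstream: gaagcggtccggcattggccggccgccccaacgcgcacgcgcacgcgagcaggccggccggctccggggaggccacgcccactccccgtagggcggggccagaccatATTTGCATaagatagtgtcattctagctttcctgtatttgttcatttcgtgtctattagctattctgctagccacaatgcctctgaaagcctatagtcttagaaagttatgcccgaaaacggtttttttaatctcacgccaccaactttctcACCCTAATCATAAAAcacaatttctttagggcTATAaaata
VTRNA1-1 upstream: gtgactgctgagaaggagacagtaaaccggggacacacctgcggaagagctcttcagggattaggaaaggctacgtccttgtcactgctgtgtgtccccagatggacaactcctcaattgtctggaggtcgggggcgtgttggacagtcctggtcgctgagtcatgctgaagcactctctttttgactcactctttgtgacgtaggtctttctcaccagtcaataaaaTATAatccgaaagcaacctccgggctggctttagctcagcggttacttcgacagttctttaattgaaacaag

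The RPPH1 window held all of these letters. It ran from -277 to 22, counted along the gene with its first base as 0, and its last 23 bases were those of the RNA. The octamer lay at -101 to -94, the ACC and AAA pair at -70 to -56 and TATA from -34. The RMRP window, which ran from -323 to -24, had an octamer at -216 to -209, 2 matches of the pair, the first from -64 to -51, and TATA from -32, and ended before the whole TATA region was covered. The VTRNA1-1 window had TATA from -21 and neither of the other motifs. The window of GSTA4 (chr6:52995235-52995534) reached only from -386 to -87 of RN7SK and held no octamer in those letters. Of the 35116 promoter windows in the table, 1.77% held the octamer on either strand, 6.33% held TATA at that distance from their own start and 1.08% held the pair. The spacing of the pair was set with known elements of such promoters in mind, RPPH1 among them, so its match there is a description of the sequence alone.

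The vault RNAs are shown whole because their internal promoter can be read in them. Capitals mark the B box, searched as GTTCGANNC, which is bound by TFIIIC.
VTRNA1-1 RNA: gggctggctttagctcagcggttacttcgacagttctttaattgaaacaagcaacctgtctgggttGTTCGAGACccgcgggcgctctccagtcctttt
VTRNA1-2 RNA: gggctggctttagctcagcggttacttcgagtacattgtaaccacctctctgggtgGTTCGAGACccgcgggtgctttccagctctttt
VTRNA1-3 RNA: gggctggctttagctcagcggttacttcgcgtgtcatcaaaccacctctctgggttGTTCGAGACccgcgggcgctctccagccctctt

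Each vault RNA had 1 B box match, at bases 67 to 75 of VTRNA1-1 and 57 to 65 of the others. The other 6 RNAs had none in these letters. In the 35116 promoter windows the B box letters occurred on the sense strand in 0.353% and on either strand in 0.829%. Those windows hold 250 bases before a start and 50 after it, so they do not reach the bases where the vault B boxes lie. The RNAs of VTRNA1-1 and VTRNA1-2 were 81.8% identical over their alignment, those of VTRNA1-1 and VTRNA1-3 83.0%, and those of VTRNA1-2 and VTRNA1-3 87.8%.

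RN7SL1 and RN7SL2 are close copies, and the pair was 98.3% identical, with 4 differing bases and 1 gap. Sequence shared with other genes limits how surely the deposited peaks can be placed, since reads were 37 nt long at each end. Of the 263 stretches of 37 bases in RN7SL1, 97.3% also occurred in the transcript of another annotated gene, and 184 of them in RN7SL2. The share was 91.3% of 264 stretches in RN7SL2, 82.9% of 292 in RN7SK and 70.0% of 90 in RNU6ATAC. It was 0 in RMRP (232 stretches), RPPH1 (297), VTRNA1-1 (63), VTRNA1-2 (53) and VTRNA1-3 (53). Peaks at the 7SL, 7SK and U6atac genes are therefore uncertain inside the gene, and the other 5 genes shared no such stretch with an annotated transcript.

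All 9 genes had a peak within 500 bp of their start in each of the 3 lists. Over all 58121 annotated genes the share with such a peak was 20.9% in PRO-seq 1M, 22.3% in qPRO-seq 1M and 17.0% in qPRO-seq 250k. Over the 7515 annotated genes of short RNA classes, it was 4.14% (Wilson 95% interval 3.71 to 4.61), 5.52% (5.03 to 6.06) and 3.97% (3.55 to 4.43), intervals that cover counting error only. When peaks scored below the median of their list were left out, 5 of the 9 had one in PRO-seq 1M, without RN7SK, RN7SL1, RMRP and RNU6ATAC, 7 in qPRO-seq 1M and 9 in qPRO-seq 250k. The 9 genes were chosen by name and are used in most cells, so their share is not that of a random draw from the annotation. The 9 genes had 13 start peaks in PRO-seq 1M, 13 in qPRO-seq 1M and 11 in qPRO-seq 250k, since some genes were covered by several neighbouring peaks.

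**Figure D1:**
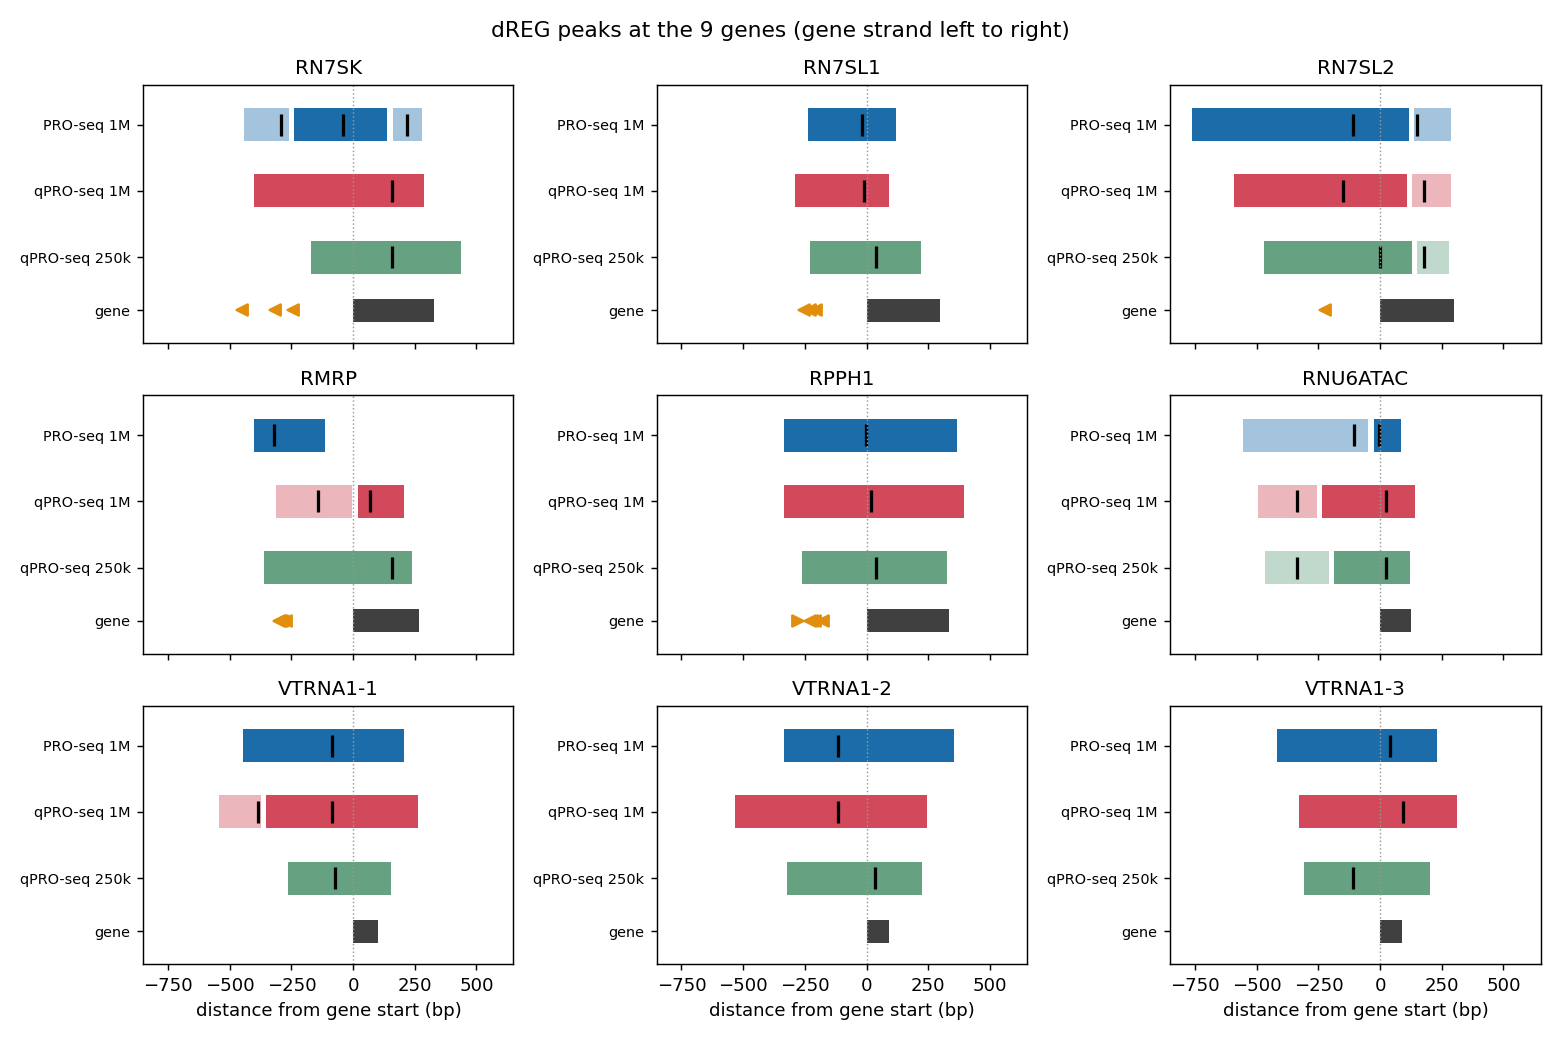
Peaks at the 9 genes by distance from the gene start in bp, along the gene's own strand; coloured bars are peaks of the 3 lists (full colour for the top-scored peak of the gene, pale for its other peaks), black ticks their centres, the dark bar the gene, and orange triangles the annotated starts of protein-coding and long noncoding genes, pointing the way those genes run. Bars span the gene start at every gene in at least 2 lists except RMRP, where the PRO-seq 1M peak ends 113 bp before the gene and only the qPRO-seq 250k peak spans its start.

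The members were of 2 kinds with respect to polymerase II. RN7SK, RN7SL1, RN7SL2, RMRP and RPPH1, 5 in all, had the start of a protein-coding or long noncoding gene 175 to 272 bp upstream on the opposite strand. The other 4, RNU6ATAC and the vault RNA genes, had no such start in GENCODE 29 within 1500 bp. The RefSeq table adds 1 for VTRNA1-1: LOC105378198 starts 1 bp after the first base of VTRNA1-1 on the same strand, and it adds none for the other 3.

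The vault RNA genes lie on the plus strand of chromosome 5. VTRNA1-1 spans 140711275 to 140711373, VTRNA1-2 140718925 to 140719013 and VTRNA1-3 140726158 to 140726246, so that their starts are 7650 and 7233 bp apart. Between 1 kb before the first and 1 kb after the last, a span of 17.0 kb, there were 3 peaks in PRO-seq 1M, 4 in qPRO-seq 1M and 3 in qPRO-seq 250k. Each of those peaks was a start peak of a vault RNA gene. The nearest protein-coding start was that of ZMAT2, at 10811 bp from VTRNA1-1.

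A vault RNA gene ranked highest of the 9 in each list, VTRNA1-3 in both 1M lists and VTRNA1-2 in qPRO-seq 250k. The VTRNA1-3 peak scored 1.12 in PRO-seq 1M (percentile 95.6), 1.26 in qPRO-seq 1M (99.7) and 0.995 in qPRO-seq 250k (96.0). The VTRNA1-2 peak stood at percentiles 89.1, 97.6 and 97.8. That of VTRNA1-1 stood at 68.0, 99.5 and 80.3, the widest range of the 3 genes. In the 1M qPRO-seq list the vault genes were thus the 3 highest of the 9, while in PRO-seq 1M VTRNA1-1 ranked below RN7SL2 and RPPH1, and in qPRO-seq 250k below those and RN7SK.

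Every top-scored vault peak covered its whole gene and reached beyond both ends. At VTRNA1-1 the peak of PRO-seq 1M ran from -444 to 205 around the gene start, that of qPRO-seq 1M from -354 to 265 and that of qPRO-seq 250k from -264 to 155. Its centre lay at -85, -85 and -75, upstream of the gene in all lists and within 10 bp of one another. The qPRO-seq 1M list had a second, low-scored peak upstream of it (percentile 30.5). The RefSeq start of LOC105378198 lay inside the top-scored VTRNA1-1 peak in all lists, so that peak cannot be divided between LOC105378198 and VTRNA1-1. At VTRNA1-2 the centres were at -115, -115 and 35 and at VTRNA1-3 at 42, 92 and -108, so that the lists placed them on either side of the start. The part common to the 3 top-scored peaks was 420 bp wide at VTRNA1-1, 550 bp at VTRNA1-2 and 510 bp at VTRNA1-3.

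RNU6ATAC, the gene of the U6atac small nuclear RNA, lies on the minus strand of chromosome 9 at 134164439 to 134164564. The nearest long gene in the annotation, the long noncoding BX649601.1, starts 4205 bp away, and the nearest protein-coding start, of WDR5, 28476 bp away. Its top-scored peak stood at percentile 32.5 in PRO-seq 1M, 67.6 in qPRO-seq 1M and 63.4 in qPRO-seq 250k. The ranks were thus under those of all 3 vault genes in each list.

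The U6atac peaks were tightly placed. The centre lay at -6, 24 and 24 from the gene start, a range of 30 bp, and the peaks covered 66.7% of the gene in PRO-seq 1M, all of it in qPRO-seq 1M and 98.4% in qPRO-seq 250k. Each list also had a second, lower-scored peak further upstream, centred at -106 in PRO-seq 1M and at -336 in both qPRO-seq lists. In PRO-seq 1M the boundary between the 2 peaks fell close to the gene start: the first was 110 bp wide, from -26 to 83, and the second ran from -556 to -47.
The RNA itself is shown because its end carries the polymerase III stop signal, a run of T (capitals mark no motif here).
RNU6ATAC RNA: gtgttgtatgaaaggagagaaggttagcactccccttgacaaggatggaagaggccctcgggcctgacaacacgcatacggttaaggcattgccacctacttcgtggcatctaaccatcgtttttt

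It ends in 6 T. VTRNA1-1 and VTRNA1-2 end in 4, VTRNA1-3 and RN7SL2 in 2, RN7SK, RN7SL1 and RMRP in 1, and RPPH1 in none, as the annotated transcripts are cut.

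**Figure D2:**
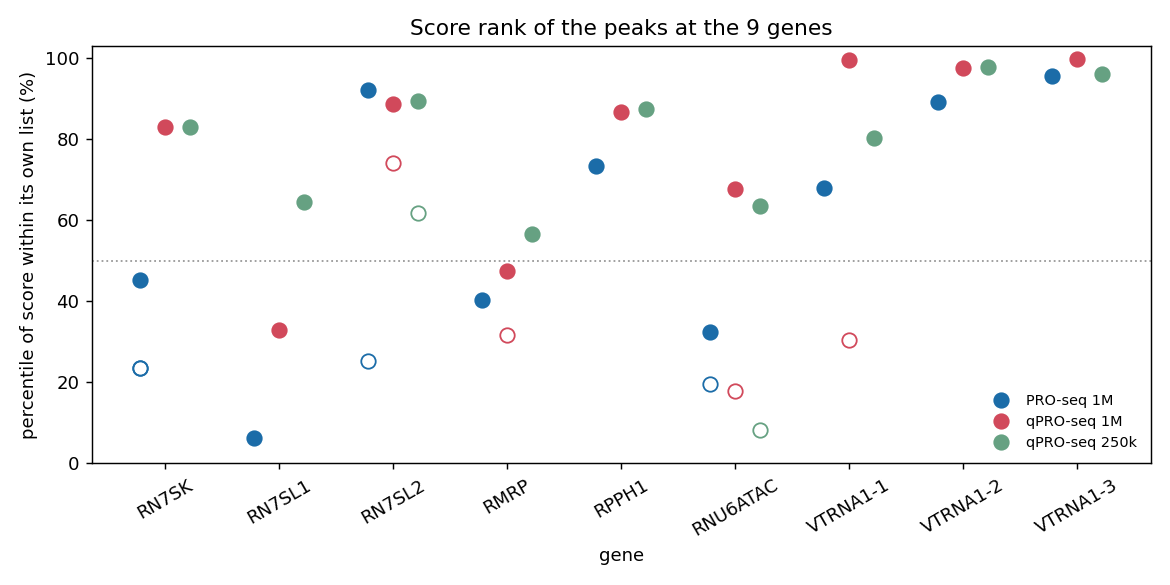
Percentile of each start peak's score within its own list (y axis, percent) for the 9 genes (x axis); filled circles are the top-scored peak of a gene and open circles its other peaks, in the colours of the 3 lists, and the dotted line is the median of a list. VTRNA1-2 and VTRNA1-3 sit between 89.1 and 99.7 in all lists, and RN7SL1 is at 6.2, 33.0 and 64.6.

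RPPH1, the RNA of RNase P, which trims the 5′ ends of tRNA precursors, is read divergently from PARP2, a poly(ADP-ribose) polymerase gene of DNA repair. RPPH1 spans 20343075 to 20343407 on the minus strand of chromosome 14, and 4 of the 11 annotated starts of PARP2 lie within 500 bp of its start, the nearest 175 bp upstream. Another record, the antisense transcript AL355075.4, starts 278 bp upstream on the strand of RPPH1 and covers it.

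A single wide peak took in both genes' starts in each list. It ran from -333 to 366 in PRO-seq 1M, from -333 to 396 in qPRO-seq 1M and from -263 to 326 in qPRO-seq 250k, and covered all of RPPH1 in both 1M lists and 98.2% in qPRO-seq 250k. The centre lay at -3, 17 and 37, that is, at the RPPH1 start. The nearest PARP2 start was 172, 192 and 212 bp from those centres. The peak stood at percentiles 73.3, 86.8 and 87.5, and one peak that spans both starts cannot be divided between the polymerases.

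RMRP, the RNA of RNase MRP, which acts in ribosomal RNA processing, faces CCDC107, a gene for a coiled-coil protein. RMRP spans 35657751 to 35658018 on the minus strand of chromosome 9, and all 4 annotated start positions of CCDC107 lie 272 to 299 bp upstream. RMRP was the member at which the lists differed most in the placing of the peak. In PRO-seq 1M the only start peak ran from -402 to -113, covered none of RMRP, and was centred 322 bp upstream of RMRP and 23 bp from a CCDC107 start. Its percentile was 40.4.

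In qPRO-seq 1M there were 2 peaks. The top-scored one ran from 18 to 207, inside RMRP, with its centre at 68 and a percentile of 47.6, and the other ran from -312 to -3, with its centre 130 bp from the nearest CCDC107 start and a percentile of 31.8. In qPRO-seq 250k 1 peak at percentile 56.7 ran from -362 to 237 and covered 88.8% of RMRP, with its centre at 158, inside the gene. RMRP was the only member whose 3 top-scored peaks had no base in common, and its centres spread over 480 bp, against 10 to 200 bp at the other 8 genes. It was also the only one of the 9 that lost its peak in a list, PRO-seq 1M, when the peak had to overlap the gene.

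RN7SK, the gene of 7SK RNA, lies at 52995621 to 52995948 on the plus strand of chromosome 6. GSTA4, a glutathione S-transferase gene, starts upstream of it on the other strand: 3 of its 6 annotated starts lie within 500 bp, at 243, 317 and 451 bp. The locus stood alone, with the next peak of each list at least 65.6 kb away. In PRO-seq 1M it was covered by 3 neighbouring peaks. The first, from -440 to -261, had its centre 26 bp from a GSTA4 start, the second, from -240 to 139, had its centre at -41, and the last, from 160 to 279, lay inside RN7SK. Their percentiles were 23.6, 45.3 and 23.6.

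Both qPRO-seq lists had 1 peak there in place of several. It ran from -400 to 289 in qPRO-seq 1M and from -170 to 439 in qPRO-seq 250k. The centre was at 159 in both, within the gene, and the percentile was 83.1 in both. The qPRO-seq 250k peak covered all of RN7SK, reached 439 bp past its start and ended 73 bp short of the nearest GSTA4 start.

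RN7SL1 and RN7SL2, the pair of 7SL genes, differed in rank. Their identity was measured on the RNAs alone, and at least 50.9% of the width of each top-scored peak lay upstream of the gene. RN7SL1 lies on the plus strand of chromosome 14 at 49586580 to 49586878 and RN7SL2 on its minus strand at 49862550 to 49862849. Their starts are 276269 bp apart. The RN7SL1 peak stood at percentiles 6.2, 33.0 and 64.6, the lowest of the 9 genes in both 1M lists. The top-scored RN7SL2 peak stood at 92.2, 88.7 and 89.3. It ranked after VTRNA1-3 in PRO-seq 1M, after all 3 vault genes in qPRO-seq 1M and after VTRNA1-2 and VTRNA1-3 in qPRO-seq 250k.

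The RN7SL1 peak sat across the gene start. It ran from -239 to 120, from -289 to 90 and from -229 to 220 in the 3 lists, with the centre at -20, -10 and 40. Its deposited p was 0 in PRO-seq 1M, where its score of 0.341 was among the lowest of the list, and it was 1.24e-02 in qPRO-seq 1M and 1.66e-05 in qPRO-seq 250k. RN7SL1 lies within the annotated extent of RPS29, a ribosomal protein gene on the other strand. Of the 8 RPS29 transcripts, 5 start within 500 bp of the RN7SL1 start. The nearest of these positions, 204 bp upstream, lay inside the RN7SL1 peak in all 3 lists, so the peak cannot be divided between the polymerases. The outermost annotated start of RPS29, 12584 bp away, had another peak, at percentiles 48.8, 74.9 and 52.5.

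At RN7SL2 the top-scored peak lay mostly upstream of the gene. It ran from -761 to 118, from -591 to 108 and from -471 to 128, so that 86.5%, 84.4% and 78.5% of its width was upstream. The long noncoding gene AL627171.1 starts 223 bp upstream on the other strand, inside the peak in all 3 lists. The centre was 111, 151 and 1 bp from the RN7SL2 start and 112, 72 and 222 bp from that of AL627171.1. A second peak covered the later part of RN7SL2 in each list, from 139 to 288, from 129 to 288 and from 149 to 278, at percentiles 25.3, 74.2 and 61.8. The nearest protein-coding start, of NEMF, was 9646 bp away.

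**Figure D3:**
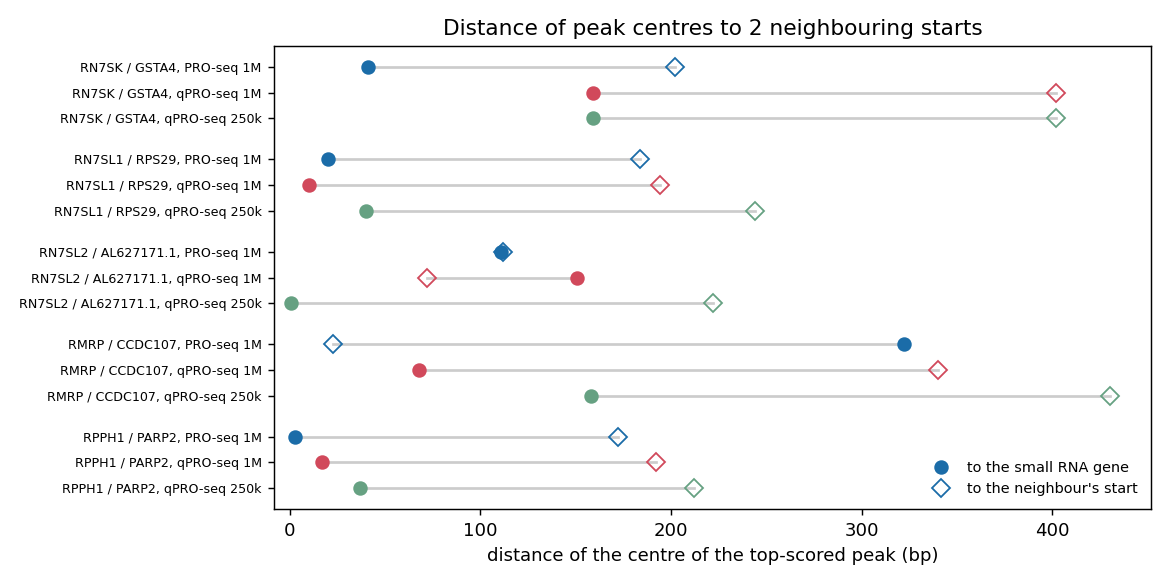
Distance in bp from the deposited centre of the top-scored peak to the start of the small RNA gene (filled circles) and to the nearest start of the neighbouring gene (open diamonds), for the 5 genes with a neighbour and the 3 lists. Grey lines join the values of 1 peak. The circle lies left of the diamond in all lists at RN7SK, RN7SL1 and RPPH1, is 322 bp against 23 bp at RMRP in PRO-seq 1M, and lies to the right at RN7SL2 in qPRO-seq 1M, with 151 bp against 72 bp.

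Only the 5 genes with a neighbouring long gene start could have a top-scored peak centred nearer to that start than to their own. Among these 5, the deposited centre was nearer the small RNA start except at RMRP in PRO-seq 1M and RN7SL2 in qPRO-seq 1M. At RN7SL2 in PRO-seq 1M the margin was 111 against 112 bp. The midpoint of the RN7SL2 peak's interval was nearer the start of AL627171.1 in every list, so the result at RN7SL2 depends on the choice of centre. The 4 genes without such a neighbour could count only as nearer. With them included, the numbers of the 9 genes by the deposited centre were 8 in PRO-seq 1M, 8 in qPRO-seq 1M and 9 in qPRO-seq 250k. The centre lay within 100 bp of the small RNA start at 6 genes in each list. Its median distance from the start was 42, 85 and 40 bp, beside 87, 92 and 81 bp for the protein-coding genes with a start peak. For genes of the short RNA classes with a start peak it was 272, 268 and 182.5 bp. Protein-coding genes, which can have several starts, were measured from the outermost one, so their distances are not a like measure. The top-scored peaks of the 9 genes were a median of 650, 640 and 550 bp wide, beside 550, 540 and 470 bp for protein-coding genes. The median percentile was 68.0, 86.8 and 83.1, beside 75.8, 80.2 and 67.6. With 9 genes that span from 6.2 to 95.6 in PRO-seq 1M, these medians are a description of the members and no test was made of them.

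Genes with and without a neighbouring long gene start in GENCODE 29 overlapped in rank. The 4 genes without one, VTRNA1-1 with its RefSeq neighbour among them, stood at a median percentile of 78.6, 98.6 and 88.1 in the 3 lists, and the 5 genes with one at 45.3, 83.1 and 83.1. The ranges were 32.5 to 95.6 against 6.2 to 92.2 in PRO-seq 1M, 67.6 to 99.7 against 33.0 to 88.7 in qPRO-seq 1M, and 63.4 to 97.8 against 56.7 to 89.3 in qPRO-seq 250k. RNU6ATAC stood below the median of the genes with a neighbour in all 3 lists. Of the vault genes, VTRNA1-1 stood below it in qPRO-seq 250k alone, at 80.3, and the others in no list.

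Other polymerase III genes had start peaks less evenly. Of 13 such genes found in the annotation, 7 had one in PRO-seq 1M, 10 in qPRO-seq 1M and 8 in qPRO-seq 250k, and 6 in all 3. VTRNA2-1, the vault RNA homologue on the minus strand of chromosome 5, stood at percentiles 96.5, 93.9 and 89.9 with no long gene start within 500 bp. Of the genes for U6, the spliceosomal RNA that shares the upstream promoter type, RNU6-1 (74.6, 75.7 and 47.9), RNU6-2 (70.7, 93.2 and 81.6), RNU6-8 (30.2, 76.9 and 51.0) and RNU6-9 (17.7, 72.6 and 75.4) had peaks in all lists. RNU6-7 had none in PRO-seq 1M and stood at 43.9 and 38.6 in the qPRO-seq lists. RNU6-2 and RNU6-9 had a protein-coding start, of TMEM259 and MED16, 343 and 266 bp away.

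The Y RNA genes, whose RNAs bind the Ro protein, were mixed. RNY1 stood at percentiles 20.6, 73.1 and 20.5, with the long noncoding GHET1 279 bp away. RNY3 had a peak in both 1M lists (3.5 and 53.8) and RNY4 in both qPRO-seq lists (63.5 and 77.6). BCYRN1, a neuronal RNA gene, had one in qPRO-seq 1M alone, at percentile 2.9 with its centre at -235. The 5S rRNA genes RNA5S1 and RNA5S9 and the 7SL gene RN7SL3 had none. The 5S genes and RN7SL3 are near-identical to other copies, so the lack of a peak there is uncertain. Sequence sharing was not measured for any gene of this list, so how surely the peaks at the U6 and other genes are placed is not known either.

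The small nuclear RNA genes that polymerase II reads from promoters of related build were the nearest comparison. Of 18, a start peak was present for 17 in PRO-seq 1M, 18 in qPRO-seq 1M and 17 in qPRO-seq 250k, with 16 in all 3. RNU2-1 lacked one in PRO-seq 1M and RNU5A-1 in qPRO-seq 250k. RNU4ATAC, of the minor spliceosome as is RNU6ATAC, stood at percentiles 100, 99.9 and 97.3, above RNU6ATAC in each list, with CLASP1 and AC012447.1 starting within 500 bp. RNU11 (87.7, 99.7 and 85.5) and RNU12 (93.1, 87.6 and 56.7) complete the minor class, RNU12 with POLDIP3 282 bp away.

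The other genes on that list were RNU1-1, RNU1-2, RNU1-3, RNU1-4, RNVU1-18, RNU2-2P, RNU4-1, RNU4-2, RNU5B-1, RNU5D-1, RNU5E-1, RNU5F-1 and RNU7-1. The median percentile of the list was 77.8, 86.5 and 71.8 over the genes with a peak, against 68.0, 86.8 and 83.1 for the 9 polymerase III genes. The order of the medians thus differed between lists.

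Annotated copies of most of these families seldom had a start peak. Of 675 7SL copies, 4 had one in PRO-seq 1M, 7 in qPRO-seq 1M and 6 in qPRO-seq 250k. Of 292 7SK copies the numbers were 3, 7 and 0, and of 1263 U6 copies 7, 9 and 3. None of 41 U6atac copies and none of 3 copies of the RNase P and MRP RNAs had one in any list. Of 53 Y RNA copies 1 had a peak, in qPRO-seq 1M. Of 3 other annotated vault RNA genes, 1 had a peak in every list and the others had none. It was VTRNA2-1, already described among the other polymerase III genes. The sequence sharing given above was measured for the 9 genes alone. At least 1 stretch of RN7SK occurred in 50 other genes, of RN7SL1 in 63, of RN7SL2 in 75 and of RNU6ATAC in 8. Sharing of the U6 and Y RNA copies was not measured. How the authors placed reads that match several sites is not given in the sources used here.

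Among copies with no long gene start within 1500 bp, RN7SKP39 on chromosome 10 ranked highest in qPRO-seq 1M, at percentile 95.1. It had a peak in that list alone, with a peak that covered all 322 bp of it. RN7SL346P on chromosome 15 had a peak in all 3 lists, at 90.9 in qPRO-seq 1M, but none of the copy was covered there and the centre lay at -403.

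**Figure D4:**
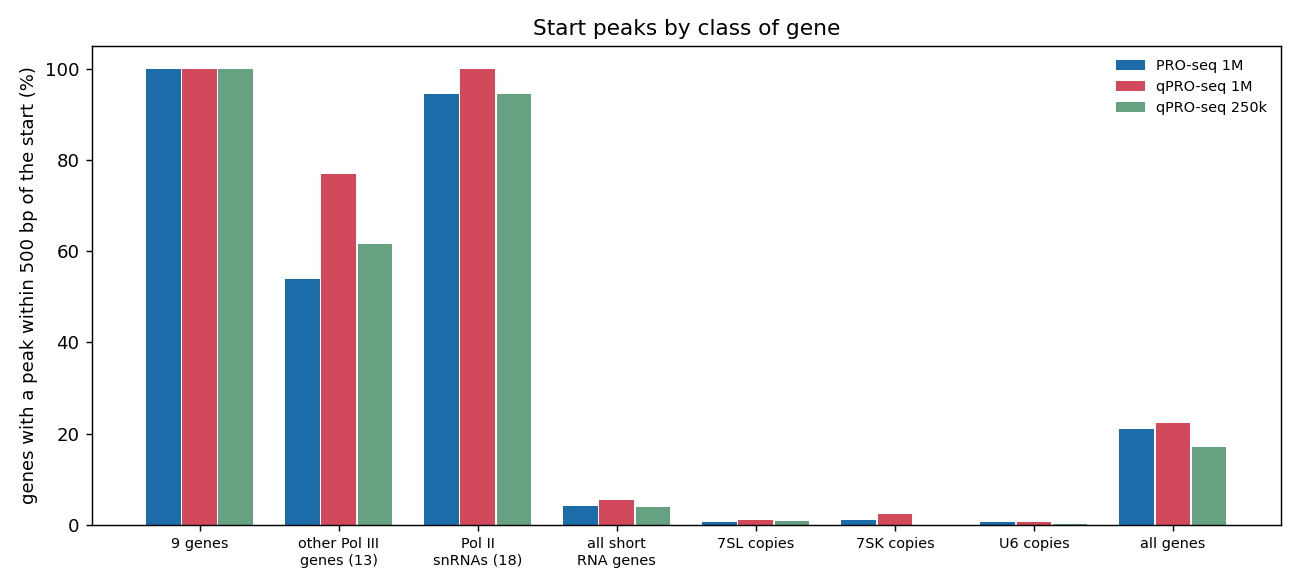
Percent of genes with a peak within 500 bp of the gene start (y axis) by class of gene (x axis), with 1 bar per list; numbers in brackets, where given, are genes in a class. The bars of the 9 genes are at 100 in all lists, those of the 7SL, 7SK and U6 copies at 2.40 or lower, and those of all genes at 20.9, 22.3 and 17.0.

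The protein genes that make or use these RNAs are read by polymerase II and were looked up at any annotated start, a wider rule than that for the short genes. By that rule 52.9% of all 19864 protein-coding genes had a peak in PRO-seq 1M, 54.5% in qPRO-seq 1M and 44.0% in qPRO-seq 250k. Of 13 genes for polymerase III subunits, 13 had a start peak in PRO-seq 1M, 12 in qPRO-seq 1M and 11 in qPRO-seq 250k. POLR3F had one in PRO-seq 1M alone (percentile 48.6), and POLR3E lacked one in qPRO-seq 250k (24.3 and 19.6 in the 1M lists). Of 20 genes for initiation factors and regulators the numbers were 15, 17 and 13. BDP1, SNAPC2 and SNAPC5 had none in any list, BRF2 (17.4) and SNAPC4 (31.4) had one in qPRO-seq 1M alone, and BRF1 and GTF3C3 had one in both 1M lists alone. BRF1, BRF2 and BDP1 are parts of TFIIIB, and the SNAPC proteins of the complex that binds the proximal sequence element.

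Among the partner proteins of the RNAs, all 7 genes of the 7SK particle and P-TEFb (LARP7, MEPCE, HEXIM1, HEXIM2, CDK9, CCNT1 and CCNT2) and all 6 of the signal recognition particle had one in all 3 lists. Of 11 genes for RNase P and MRP proteins, 9, 10 and 9 had one. RPP21 had none, and RPP14 had one in qPRO-seq 1M alone (57.8). Of the 3 vault proteins, TEP1 and PARP4 had a start peak in every list and MVP, the major vault protein, in none.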

How the data were processed

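The 6 libraries of K562 cells fall into 3 groups of 2 by their titles, and the labels place replicates at least 3 passages apart. The deposited files are 3 dREG peak lists, 1 per group. Per the labels, each list belongs to both replicates; pooling and the settings of dREG are not given in the sources used here. The submitters' processing notes name fastp 0.20.0, Bowtie2 2.3.5.1, deepTools 3.1.3, UMI-tools and builds hg38 and GRCh38, with no order. The score of each peak and its p-value are as the authors deposited them, and whether the p-value was adjusted is not given. The other deposited columns are start, end and centre positions, on a grid of 10 bp.

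Starts were converted to count from 1. Peaks on chromosomes 1 to 22 and X were used. A start peak lay within 500 bp of the gene start in GENCODE 29, and the top-scored one stood for the gene. RMRP has 2 records with starts 1 bp apart, and the manually annotated one was used. Records of another gene within 10 bp of a member's start on its strand were taken as second models. No test was made between groups, which have 1 list each. Shares of annotated genes have Wilson 95% intervals (Python 3.11.15, scipy 1.17.1). The lookup was tested on simulated data. All 9 members, every short RNA gene with a peak, every protein gene lacking one in a list, and the top copies in qPRO-seq 1M were named. Of 15 other polymerase III genes listed, 13 were in the annotation. Members and lists were chosen with earlier results of these data known. Alternatives changed the window, the peak limits, the list sizes, the choice of peak and the starts counted. The sequences of the 7SL RNAs are not reported here.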

Additional observations from a re-analysis of the deposited data

How the results depend on the processing

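Of 42 alternative values, 35 stayed the same by limits set for counts, percentiles and positions, 5 moved and 2 changed sign. The number of members with a start peak stayed at 9 in every list with windows of 250 bp and 1000 bp, with centres within 500 bp and with merged peaks. When only the upper-scored part of each list from its median up was kept, 5 of 9 had a start peak in PRO-seq 1M, where RN7SK, RN7SL1, RMRP and RNU6ATAC were lost, against 7 in qPRO-seq 1M and 9 in qPRO-seq 250k. At equal list sizes the numbers were 7, 7 and 9, and with a p limit of 0.01 they were 8, 8 and 9. Taking the midpoint of the interval in place of the deposited centre moved the median position of the top-scored peaks from -41 to -59.5 bp in PRO-seq 1M, and turned it from 17 to -46.5 bp in qPRO-seq 1M and from 35 to -49.5 bp in qPRO-seq 250k, so that the side of the gene start on which the median falls depends on that choice. The cause was not tested. Outside the 42 values, the midpoint also placed the top-scored RN7SL2 peak nearer the start of AL627171.1 than that of RN7SL2 in every list. The other 3 values that moved were the background shares, which fell to those of the short RNA genes.

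No paired analysis was possible because each group has 1 list for both replicates, and for the same reason leaving out a replicate was not possible. The read depth behind the lists is unknown.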
